A study of Mus musculus with 16 samples.

Results

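The opioid system of the hippocampus was described through 8 genes, the peptide precursors Penk, Pdyn, Pnoc and Pomc and the receptors Oprm1, Oprd1, Oprk1 and Oprl1. Their probes were chosen by the gene symbol in the platform annotation, also after symbols were updated through gene identifiers. This gave 9 of the 25697 probes on the array, for 6 of the 8 genes, among 16593 genes with a named probe. No probe carried the name of Oprm1, which encodes the mu receptor, or of Penk, the precursor of the enkephalins, so these genes were not analysed here. A missing name does not show that the array lacks a probe for them, since 1719 probes had no symbol.

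Opioid peptides are cut from large precursor proteins and act on receptors that couple to inhibitory G proteins, which open potassium channels and close calcium channels. The enkephalins and beta-endorphin act mainly on the mu and delta receptors, the dynorphins on the kappa receptor and nociceptin on the nociceptin receptor, which binds classical opioids poorly. In the hippocampus dynorphin is known mainly from granule cells of the dentate gyrus and their mossy fibres, and the same peptide is made by projection neurons of the striatum.

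Total RNA of the hippocampus of male Swiss-Webster mice was measured on 16 Illumina MouseRef-8 arrays, which are read in 1 colour. The mice came from lines bred for a high (HA) or a low (LA) magnitude of the analgesia that follows a swim stress, a form of stress-induced pain relief, which is why the opioid genes are of interest. The 4 groups were HA mice given desipramine (DMI, a tricyclic antidepressant that blocks noradrenaline uptake), HA mice given saline, LA mice given DMI and LA mice given saline, with 4 arrays each. Every mouse received 21 intraperitoneal injections, of DMI at 7.5 mg/kg/day or of saline, and the labels give an age of 15 weeks for all groups. By the methods of the study each array held RNA pooled from several mice, so the spread between arrays is that between pools and not between single animals.

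Each array detected 12900 to 13886 probes, and arrays of a group correlated with r between 0.989 and 0.996. Markers of neighbouring tissue and of cell types varied between groups. The mean of the measured striatal markers reached 8.62 on the log2 scale on a saline-labelled LA array, against 7.09 to 7.62 on the other 3 groups. That of thalamus and habenula lay between 8.19 and 8.23 on the saline-labelled HA arrays, against 7.24 to 7.92 elsewhere. The mean of 6 measured choroid plexus markers lay between 9.29 and 9.63 on the HA arrays, against 7.98 to 9.37 on the LA arrays. That of 11 markers of GABAergic interneurons lay between 9.35 and 9.55 on the DMI-labelled arrays, against 9.16 to 9.35 on the saline-labelled arrays. Over both lines DMI minus saline was 0.63 at Crhbp, 0.46 at Npy, 0.42 at Vip and 0.35 at Cort. It was −0.03 at Gad1, −0.0006 at Gad2 and −0.21 at Slc32a1, and the median of the 11 was 0.21. The study reports Npy and Crhbp as changed by DMI in HA. Of the 7 measured markers of hippocampal principal cells 6 were detected on at least 4 arrays. Their mean lay between 9.67 and 9.75 in DMI-labelled HA and 9.425 and 9.50 in saline-labelled HA arrays, without overlap. It lay between 9.62 and 9.79 in DMI-labelled LA and 9.29 and 9.76 in saline-labelled LA arrays. The value of 9.29 was that of array 2, which was also the array with the highest striatal mean. The sign of DMI minus saline by the labels was opposite to that of the probes the study tabulates, none of which is an opioid probe, in both lines. For this reason the groups are named by their label (DMI-labelled, saline-labelled), and the comparisons of HA with LA within a label carry the same doubt about which treatment the arrays received.

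Detection separated the opioid genes before any comparison. Detection was judged by the detection p of a probe, which sets its signal against the negative controls of the same array, with 0.05 as the limit. Pdyn, the precursor of the dynorphins, was detected on 16 of 16 arrays by probe ILMN_2783873 and on 15 by probe ILMN_2767871. Oprl1, the nociceptin receptor, was detected on 16 of 16 arrays by each of its probes ILMN_2807572, ILMN_2683352 and ILMN_1235369.

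The other 4 genes were at or close to the level of the negative controls. Pnoc, the precursor of nociceptin, was detected on 5 of 16 arrays, namely 1 DMI-labelled HA array, 0 saline-labelled HA arrays, 2 DMI-labelled LA arrays and 2 saline-labelled LA arrays, and on 0 arrays at a detection p under 0.01. Oprk1, the kappa receptor, was detected on 1 array, a saline-labelled LA array with a detection p of 0.0175. Oprd1, the delta receptor, and Pomc, the precursor of beta-endorphin and of corticotropin, were detected on 0 of 16 arrays. Their detection p was never below 0.113 for Oprd1 and 0.125 for Pomc. These values place an upper limit on the signal of 1 probe per gene and do not show that the transcripts were absent.

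**Figure D1:**
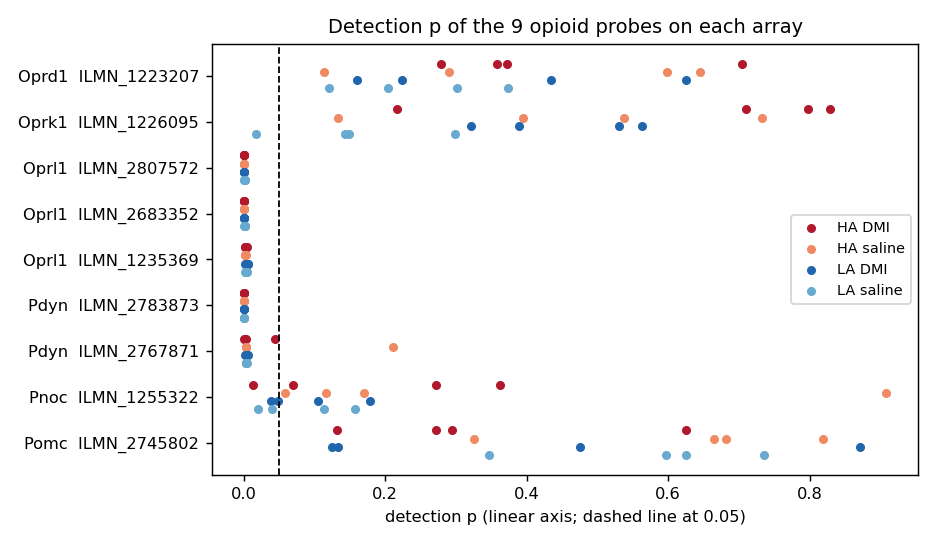
Detection p (horizontal, linear axis) of the 9 opioid probes, with a point for each of the 16 arrays coloured by line and label and a dashed line at 0.05. The probes of Oprl1 and Pdyn lie left of the line on all arrays but 1 for Pdyn ILMN_2767871, while Oprd1 and Pomc lie right of it on all 16 arrays.

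The normalised signals of these 4 dim genes stayed in a narrow band. On the log2 scale Oprd1 ranged from 6.44 to 6.62, Oprk1 from 6.40 to 6.75, Pnoc from 6.39 to 6.78 and Pomc from 6.39 to 6.61 over the 16 arrays, against a median of 6.70 over all probes on each array. No fold change is given for these genes. Oprk1 was the 1 of 9 opioid probes whose groups did not overlap in a comparison of the labels within a line. It lay between 6.48 and 6.54 on the DMI-labelled LA arrays and between 6.54 and 6.75 on the saline-labelled LA arrays, without overlap, as did 3.95% of all probes in that comparison, and its adjusted p in limma was 0.544.

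Pdyn is shown with its promoter because it was the only opioid gene with a difference past the threshold. The sequence is the RefSeq window of 300 bases around a start of the gene in GRCm38.p6, at chr2:129699889-129700188 on the minus strand, and the capitals mark TGACAAACA, a variant AP-1 element described in the prodynorphin gene of the rat.
Pdyn promoter: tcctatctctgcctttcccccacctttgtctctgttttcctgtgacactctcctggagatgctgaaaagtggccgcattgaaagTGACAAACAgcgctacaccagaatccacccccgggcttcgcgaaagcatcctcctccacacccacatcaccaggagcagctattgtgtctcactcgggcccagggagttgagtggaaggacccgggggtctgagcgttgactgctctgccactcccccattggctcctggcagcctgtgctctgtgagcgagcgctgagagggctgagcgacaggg
The element occurred once on the strand shown, beginning 166 bases before the start, and not on the other strand. It was found on either strand in 110 of 32851 windows of 300 bases, or 0.335% of them. The cAMP response element TGACGTCA (in 1.79% of windows), its core TGACG (20.8%, which includes every window with the longer form) and the AP-1 site TGACTCA (5.2%) were not found in this window or in the other Pdyn window of the table on either strand. Windows were given for 5 of the 8 genes, and TGACAAACA was not found in those of Oprl1, Oprd1, Oprm1 and Pomc. A match describes the letters of the window, and no binding was measured.

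Pdyn was lower in HA than in LA mice on the saline-labelled arrays and did not pass the test in any comparison of DMI with saline. At probe ILMN_2783873 the log2 signals were 8.74, 8.29, 8.29 and 8.92 on the DMI-labelled HA arrays and 8.48, 8.31, 8.48 and 8.43 on the saline-labelled HA arrays. They were 8.78, 9.10, 8.68 and 8.77 on the DMI-labelled LA arrays and 9.10, 9.60, 8.78 and 8.81 on the saline-labelled LA arrays. All 4 saline-labelled HA arrays were below all 4 saline-labelled LA arrays, whereas the DMI-labelled arrays of the lines overlapped through 2 HA arrays.

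The means at this probe were 8.56 ± 0.32 in DMI-labelled HA, 8.43 ± 0.08 in saline-labelled HA, 8.83 ± 0.18 in DMI-labelled LA and 9.07 ± 0.38 in saline-labelled LA arrays (SD, n = 4 each). From high to low the order was saline-labelled LA, DMI-labelled LA, DMI-labelled HA and saline-labelled HA. No pair of neighbours in that order differed past the threshold, since the adjusted p in limma was 0.741 for the LA groups, 0.446 for the DMI-labelled groups and 0.919 for the HA groups.

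Within the saline label HA minus LA was −0.65 at ILMN_2783873 (SE 0.16, 95% interval −0.98 to −0.31), or 1.57-fold lower in HA, with an adjusted p of 0.0199 in limma over all 25697 probes. It was the 1 of 9 opioid probes that passed both the adjusted p of 0.05 and the log2 size limit of 0.5, against 1.19% of all probes, and the 1 of 9 without overlap, against 10.4% of all probes. Over both labels HA minus LA was −0.46 (SE 0.11, adjusted p = 0.0113), short of the size limit. Over both labels 0 of 9 opioid probes passed with the size limit, against 0.864% of all probes, and 1 of 9 by the adjusted p alone, against 11.8%. On the DMI-labelled arrays it was −0.27 (SE 0.16, 95% interval −0.61 to 0.07, adjusted p = 0.446), where 0 of 9 opioid probes passed, against 0.852% of all probes. The line differences under the 2 labels were not shown to differ, since their difference was 0.38 (SE 0.23) with an adjusted p of 0.804.

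The call rested on 1 array in part. Without array 2 of the saline-labelled LA group, the highest of the 16, HA minus LA on saline-labelled arrays was −0.47 with an adjusted p of 0.0476, under the size limit, and without array 2 of the saline-labelled HA group it was −0.61 with an adjusted p of 0.0630. With arrays scaled to a common median in place of quantile normalization it was −0.39 with an adjusted p of 0.392.

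The second Pdyn probe, ILMN_2767871, gave signals nearer to the negative controls. Its log2 values were 6.97, 6.91, 6.67 and 7.11 on the DMI-labelled HA arrays, 6.83, 6.91, 6.83 and 6.57 on the saline-labelled HA arrays, 6.89, 7.003, 6.90 and 7.06 on the DMI-labelled LA arrays and 6.97, 7.03, 6.95 and 6.78 on the saline-labelled LA arrays. All groups overlapped, and the array of 6.57 was the one on which the probe was not detected. HA minus LA on saline-labelled arrays was −0.15 (SE 0.09, 95% interval −0.33 to 0.03, adjusted p = 0.410), so this probe did not pass where ILMN_2783873 did. Over the 16 arrays the probes correlated with r = 0.591, and with r = 0.547 after group means were removed, as a description over arrays that share the normalization.

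**Figure D2:**
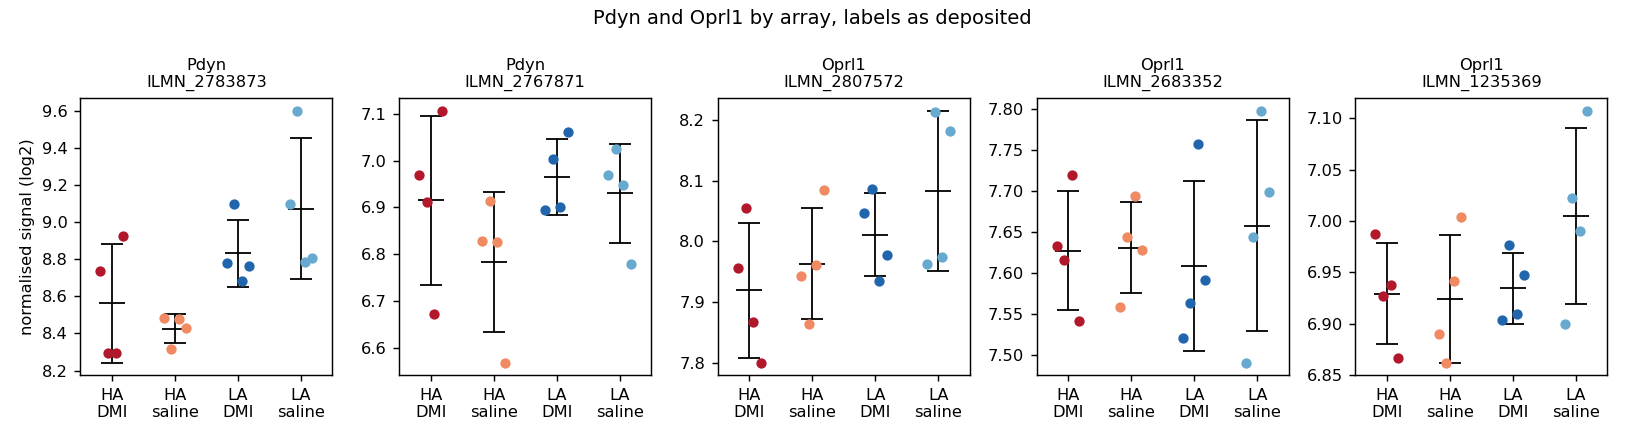
Normalised log2 signal of each probe of Pdyn and Oprl1 (vertical axes, which differ in range between panels) on the 4 arrays of each group, with the mean and SD as bars. At Pdyn ILMN_2783873 the saline-labelled HA arrays lie between 8.31 and 8.48 and the saline-labelled LA arrays between 8.78 and 9.60, and in the other panels the 4 groups overlap.

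Neither DMI comparison passed at Pdyn. DMI minus saline at ILMN_2783873 was 0.14 in HA (SE 0.16, 95% interval −0.20 to 0.47, adjusted p = 0.919) and −0.24 in LA (SE 0.16, 95% interval −0.58 to 0.10, adjusted p = 0.741). The DMI-labelled HA values split, with 2 arrays above and 2 arrays below every saline-labelled HA array. At ILMN_2767871 the differences were 0.13 in HA (SE 0.09, adjusted p = 0.777) and 0.03 in LA (SE 0.09, adjusted p = 0.956). The intervals at ILMN_2783873 allow changes of more than 0.4 on the log2 scale in either line, so these arrays leave the size of any DMI effect on Pdyn wide.

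Pdyn varied over the arrays together with the striatal markers, though not with these alone. The list holds 12 genes, of which 9 were measured and 8 detected on at least 4 arrays, among them the dopamine receptors Drd1 and Drd2 and the striatal signalling proteins Ppp1r1b and Rgs9. Its mean log2 signal lay between 7.09 and 7.62 on the DMI-labelled HA arrays, 7.37 and 7.40 on the saline-labelled HA arrays, 7.11 and 7.54 on the DMI-labelled LA arrays and 7.22 and 8.62 on the saline-labelled LA arrays. It correlated with Pdyn ILMN_2783873 with r = 0.784 over 16 arrays, 0.882 over the 8 HA arrays and 0.838 over the 8 LA arrays, the last of which was 0.636 without array 2 of the saline-labelled LA group. On the saline-labelled arrays Rgs9, Pde10a and Rarb, 3 of the 9 markers, were lower in HA than in LA at an adjusted p under 0.05. This compares with 6.36% of all probes, and 0 markers were higher. The median of the 9 was −0.46, against 0.00 over all probes. The study reports Drd1 (as Drd1a), Ppp1r1b, Tac1 and Rarb of this list as changed by DMI in LA. The list was chosen with earlier results of these data known, so this count is not independent of them.

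Arrays 1, 2 and 4 of the saline-labelled LA group had the striatal means 8.22, 8.62 and 7.97, above every other array. Array 3 of that group had a mean of 7.22, below every saline-labelled HA array, and a Pdyn signal of 8.78, above all 4 of them. An alternative added after the data had been seen left out arrays 1, 2 and 4. HA minus LA at Pdyn was then −0.36 on the saline-labelled arrays and −0.31 over both labels. The arrays left out had Pdyn signals of 9.10, 9.60 and 8.81, each above the 8.78 of the array kept. They were left out for their striatal mean and not for Pdyn. With 1 array left in the group no test is given. In bulk RNA fewer cells of a type and less RNA per cell cannot be told apart, and the part of striatal tissue in the result was not tested.

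Markers of dentate granule cells were examined in the same way. Of 8 genes 6 were measured and 2 of them, Prox1 and C1ql2, were detected on at least 4 arrays, with Dsp, Tdo2 and Calb1 detected on 0 arrays. The mean of the 6 lay between 7.30 and 7.39 in DMI-labelled HA and 7.34 and 7.43 in saline-labelled HA arrays. It lay between 7.56 and 7.60 in DMI-labelled LA and 7.46 and 7.56 in saline-labelled LA arrays, so the lines did not overlap. C1ql2 carried most of this gap, with HA minus LA of −0.92 over both labels. Prox1 gave −0.14 there, and Dsp, Tdo2, Stxbp6 and Calb1 gave −0.03 to 0.01. The median of the 6 was −0.02. C1ql2, which encodes a secreted protein of mossy fibre synapses, was lower in HA, with a difference of −1.10 (adjusted p = 1.09e-07) on the DMI-labelled arrays and −0.74 (adjusted p = 1.39e-05) on the saline-labelled arrays. Prox1, the transcription factor that marks these cells, differed by −0.26 (adjusted p = 0.0413) on the DMI-labelled arrays and by −0.03 (adjusted p = 0.911) on the saline-labelled arrays. The dentate mean correlated with Pdyn with r = 0.661 over 16 arrays, but with r = 0.537 over the HA arrays and −0.115 over the LA arrays alone. The mean of 7 neocortical markers lay between 7.49 and 7.58 on the HA arrays, against 7.70 to 7.80 on the LA arrays. It correlated with Pdyn with r = 0.693 over 16 arrays, 0.258 over the HA arrays and 0.217 over the LA arrays. Over both labels HA minus LA was −0.80 at Ctgf and between −0.23 and −0.04 at the other neocortical markers, with a median of −0.14. By rank over the 16 arrays the striatal, dentate and neocortical means followed Pdyn alike, with Spearman rho of 0.632, 0.635 and 0.638. The choroid plexus markers ran opposite to Pdyn between the lines. Their mean lay between 9.29 and 9.43 in DMI-labelled HA, 9.51 and 9.63 in saline-labelled HA, 7.98 and 8.50 in DMI-labelled LA and 8.65 and 9.37 in saline-labelled LA arrays. On the saline-labelled arrays 4 of the 6 were higher in HA than in LA by the adjusted p, against 6.36% of all probes. All 6 passed with the size limit on the DMI-labelled arrays, against 0.852% of all probes, and over both labels, against 0.864%. The study reports Ttr, Kl, Otx2 and Sostdc1 of the choroid plexus list as changed by DMI in LA. It reports the same for Enpp2 and Prlr of the list, for which no probe was named here. This list too was chosen with earlier results known, so its counts are not independent of the data. The choroid plexus mean correlated with Pdyn with r = −0.344 over 16 arrays, −0.586 over the HA arrays and 0.538 over the LA arrays. The mean of the hippocampal principal cell markers correlated with Pdyn with r = −0.090 over 16 arrays, 0.305 over the HA arrays and −0.700 over the LA arrays. The last of these was 0.171 without array 2 of the saline-labelled LA group. The part of these cell types in the Pdyn result was not tested.

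**Figure D3:**
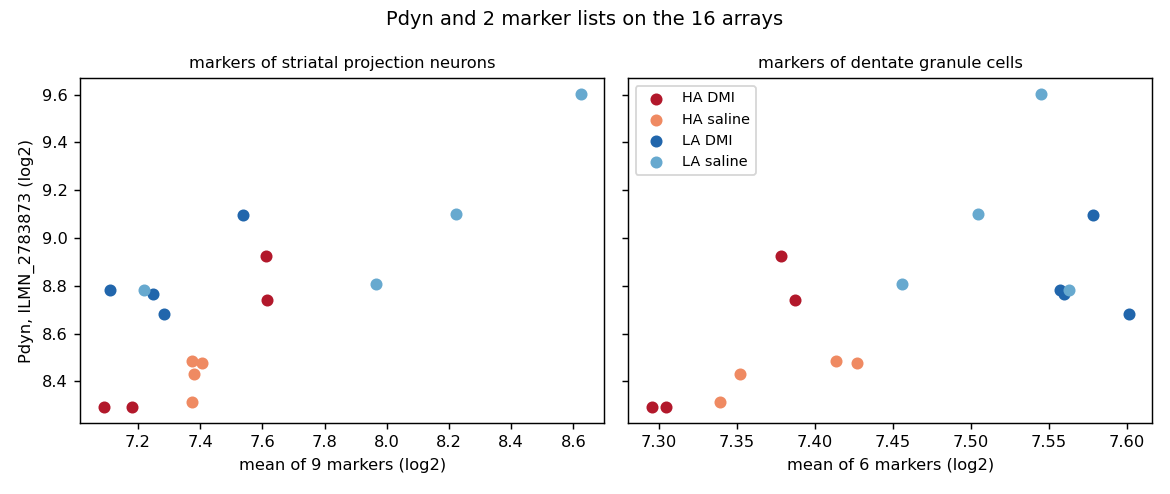
Log2 signal of Pdyn ILMN_2783873 (vertical) against the mean log2 signal of 9 striatal markers (left) and of 6 dentate granule cell markers (right), with a point for each of the 16 arrays. The saline-labelled LA array highest in Pdyn, at 9.60, is also highest in the striatal mean, at 8.62. In the right panel all HA arrays lie left of all LA arrays, a gap carried mostly by C1ql2.

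Oprl1 did not pass the test in any of the 7 comparisons at any of its 3 probes. At ILMN_2807572 the log2 signals were 7.96, 8.06, 7.87 and 7.80 on the DMI-labelled HA arrays, 7.94, 7.86, 7.96 and 8.08 on the saline-labelled HA arrays, 8.05, 8.09, 7.94 and 7.98 on the DMI-labelled LA arrays and 7.96, 8.21, 7.98 and 8.18 on the saline-labelled LA arrays. All groups overlapped, with means of 7.92 ± 0.11 in DMI-labelled HA, 7.96 ± 0.09 in saline-labelled HA, 8.01 ± 0.07 in DMI-labelled LA and 8.08 ± 0.13 in saline-labelled LA arrays (SD, n = 4 each).

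DMI minus saline at this Oprl1 probe was −0.04 in HA (95% interval −0.19 to 0.10, adjusted p = 0.947) and −0.07 in LA (95% interval −0.22 to 0.07, adjusted p = 0.848). HA minus LA was −0.12 on the saline-labelled arrays (95% interval −0.26 to 0.03, adjusted p = 0.402) and −0.11 over both labels (adjusted p = 0.198), and both values turned positive, to 0.08 and 0.07, when arrays were scaled to a common median. At ILMN_2683352 the values over the 16 arrays ranged from 7.49 to 7.80 and at ILMN_1235369 from 6.86 to 7.11. DMI minus saline in HA and in LA was 0.00 and −0.05 at the probe ILMN_2683352 and 0.01 and −0.07 at ILMN_1235369, with adjusted p between 0.754 and 0.995. The intervals of these DMI differences at the 3 probes lie within 0.22 of 0 on the log2 scale, which is narrower than for Pdyn.

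The 3 Oprl1 probes did not vary together in the same way. ILMN_2807572 and ILMN_1235369 correlated with r = 0.774 over the 16 arrays, whereas ILMN_2683352 correlated with r = 0.019 with ILMN_2807572 and 0.395 with ILMN_1235369. At ILMN_2683352 array 3 was the highest of its group in every group. It had 7.72 in DMI-labelled HA, 7.69 in saline-labelled HA, 7.76 in DMI-labelled LA and 7.80 in saline-labelled LA arrays. How many of all probes have the same replicate number highest in every group was not counted. Over the probes detected on all arrays, replicate numbers did not pair the arrays.

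**Figure D4:**
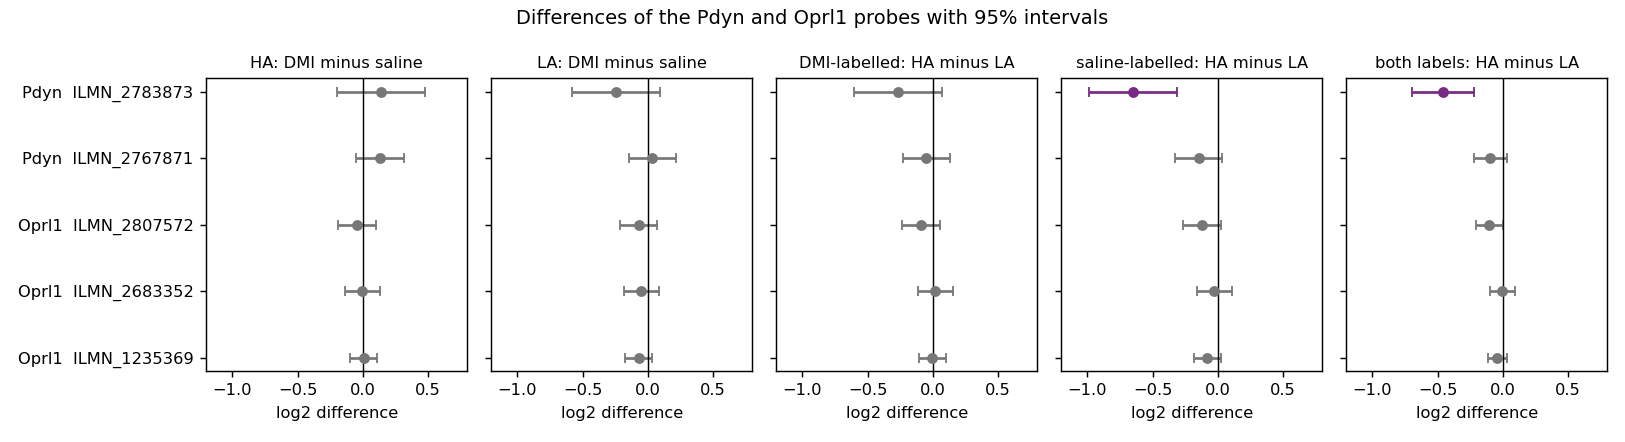
Log2 differences (horizontal, with 95% intervals) of the Pdyn and Oprl1 probes in 5 comparisons, with purple for an adjusted p under 0.05. The interval excludes 0 with an adjusted p under 0.05 for Pdyn ILMN_2783873 in HA minus LA on saline-labelled arrays (−0.65) and over both labels (−0.46), and the DMI differences of all 5 probes span 0.

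Counted over the 9 opioid probes, DMI minus saline passed at 0 probes in HA, against 0.113% of all probes, and at 0 in LA, against 0.0311%. The smallest adjusted p in limma was 0.777 in HA and 0.544 in LA, and at an unadjusted p under 0.05 the counts were 0 and 1. The effect common to both lines passed at 0 of 9, against 0.0506% of all probes, and the difference of the DMI effects between the lines at 0 of 9, against 0.00389%. With so few probes called over the whole array, these counts are near the background. The median DMI difference over the 9 probes was 0.01 in HA and −0.05 in LA, and the median of HA minus LA on saline-labelled arrays was −0.10, each against 0.00 over all probes. On the saline-labelled arrays 9 of the 9 differences were below 0, of which 4 belong to the dim genes Oprd1, Oprk1, Pnoc and Pomc. The others are probes of Pdyn and Oprl1 alone, and the share of all probes below 0 was not counted. The shared direction depended on the processing, since Oprl1 ILMN_2807572 and ILMN_2683352 turned positive when arrays were scaled to a common median.

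The genes whose signals followed the standing probe of each detected member most closely were listed by Pearson r over the 16 arrays. For Pdyn ILMN_2783873 they were Ngef, a guanine nucleotide exchange factor of neurons, with r = 0.904, Etfrf1 with 0.885, Ssbp3 with 0.879, Gucy1a1, a subunit of soluble guanylate cyclase, with 0.872 and Timm17a with 0.870, among 10113 probes compared. After group means were removed their r with Pdyn was between 0.721 and 0.896. For Oprl1 ILMN_2807572 they were Ppm1d, a protein phosphatase, with r = 0.815, Pcyox1 with 0.806, Chfr with 0.781, Atmin with 0.771 and Reln, the secreted protein reelin, with 0.763, among 10111 probes. Reln was lower in HA, with −0.44 on the saline-labelled arrays (adjusted p = 0.00214), a comparison in which Oprl1 did not pass. These are the highest of many correlations over arrays that share group differences and tissue content, and they are given as a description.

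Of 36 other genes of the pathway 30 were measured, and 22 of these were detected on at least 4 arrays. DMI minus saline had an adjusted p under 0.05 at 1 of the 30 in HA, which was lower, against 0.331% of all probes, and at 0 of 30 in LA, against 0.0662%. HA minus LA on saline-labelled arrays had one at 1 higher and 3 lower genes, against 6.36% of all probes, at 0 higher and 1 lower gene on the DMI-labelled arrays, against 4.91%, and at 3 higher and 3 lower genes over both labels, against 11.8%. With the size limit 2 of the 30 passed on the saline-labelled arrays, namely Kcnj9 and Rgs9, against 1.19% of all probes, and 0 in the other 4 of these comparisons. The medians over the 30 genes in these 5 comparisons were all within 0.06 of 0.

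Among the genes of precursor processing, not all of which encode enzymes, 4 of 6 were measured and 0 passed in any comparison. Pcsk1, a prohormone convertase, was detected on 0 arrays. Pcsk1n, which encodes its inhibitor proSAAS, was detected on all 16 arrays and had an HA minus LA of 0.17 over both labels (adjusted p = 0.153). Of the 6 peptidases that break the peptides down, 0 passed. Dpp3, an enkephalin-degrading dipeptidyl peptidase, was detected on 16 arrays and differed by −0.12 between HA and LA over both labels (adjusted p = 0.267), whereas Mme, neprilysin, was detected on 2 arrays.

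Of the 6 channels that opioid receptors act on through G proteins, Kcnj9, the GIRK3 subunit of the potassium channel, moved most. Its log2 signals were 7.19, 7.03, 7.05 and 7.22 on the DMI-labelled HA arrays, 7.67, 7.58, 7.56 and 7.43 on the saline-labelled HA arrays, 7.26, 7.02, 6.79 and 6.95 on the DMI-labelled LA arrays and 6.70, 6.84, 7.03 and 6.89 on the saline-labelled LA arrays. The saline-labelled HA arrays were above every array of the other 3 groups. HA minus LA was 0.70 on the saline-labelled arrays (SE 0.09, adjusted p = 9.84e-05) and 0.41 over both labels (SE 0.06, adjusted p = 2.29e-04), and DMI minus saline in HA was −0.44 (SE 0.09, adjusted p = 0.0368).

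The HA difference in Kcnj9 by label was less firm than the line difference. Its adjusted p was over 0.05 in 9 of the 16 fits that left out an array, up to 0.134 without array 1 of the saline-labelled HA group, and was 0.272 when arrays were scaled to a common median, whereas the line difference on the saline-labelled arrays kept an adjusted p of at most 0.00102 in these fits. The thalamus and habenula markers, of which 11 of 12 were measured and 10 detected on at least 4 arrays, were highest in the same group, with means of 7.34 to 7.75 in DMI-labelled HA, 8.19 to 8.23 in saline-labelled HA, 7.28 to 7.65 in DMI-labelled LA and 7.24 to 7.92 in saline-labelled LA arrays. On the saline-labelled arrays 6 of the 11 were higher in HA than in LA by the adjusted p, against 6.36% of all probes. In HA 3 were lower by the adjusted p on the DMI-labelled than on the saline-labelled arrays, against 0.331%. The study reports Slc17a6, Gbx2, Calb2, Gng8 and Rora of this list as changed by DMI in HA. The list was chosen with earlier results of these data known, so these counts are not independent of them. The part of these markers and of the choroid plexus markers, which were also higher in HA, in the Kcnj9 result was not tested.

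Cacna1a, the pore subunit of P/Q-type calcium channels, ran the other way. It had 6.98, 6.95, 6.83 and 7.004 on the DMI-labelled HA arrays and 6.91, 7.04, 6.81 and 6.96 on the saline-labelled HA arrays, against 7.13, 7.07, 6.999 and 7.14 on the DMI-labelled LA arrays and 7.23, 7.08, 7.61 and 7.28 on the saline-labelled LA arrays. HA minus LA was −0.37 on the saline-labelled arrays (SE 0.08, adjusted p = 0.0106), without overlap, and −0.26 over both labels (SE 0.06, adjusted p = 0.00690). With arrays scaled to a common median the adjusted p was 0.0577 and 0.0525.

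**Figure D5:**
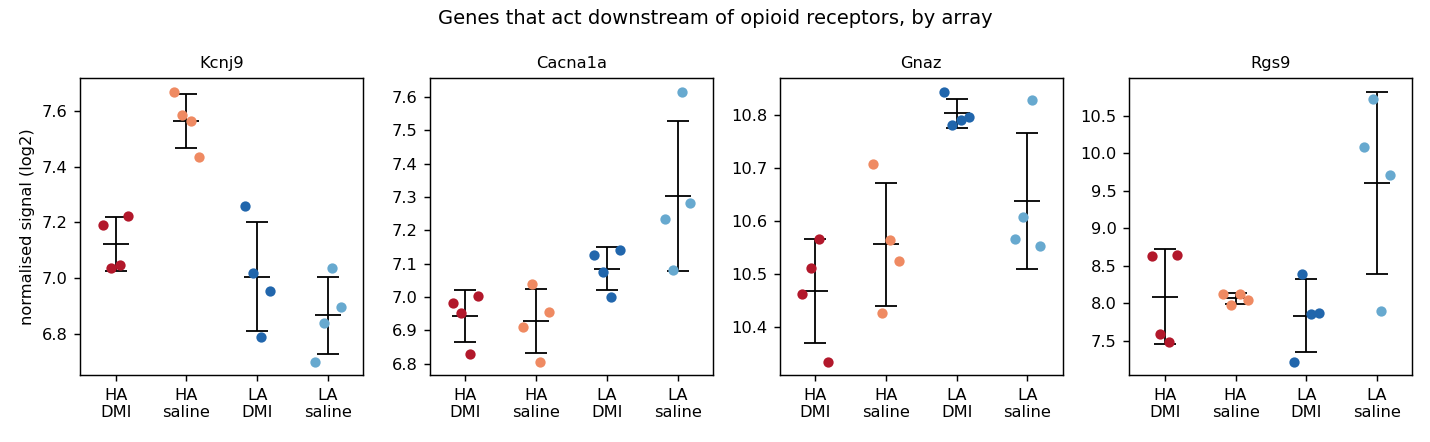
Normalised log2 signal (vertical axes, which differ in range) of Kcnj9, Cacna1a, Gnaz and Rgs9 on the 4 arrays of each group, with the mean and SD as bars. Kcnj9 is highest on the saline-labelled HA arrays (7.43 to 7.67), and Rgs9 spans 7.89 to 10.73 within the saline-labelled LA group.

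Gnaz was the G protein with an adjusted p under 0.05 in a comparison, short of the size limit. It encodes an alpha subunit of the inhibitory family, and its log2 mean was 10.47 ± 0.10 in DMI-labelled HA, 10.56 ± 0.12 in saline-labelled HA, 10.80 ± 0.03 in DMI-labelled LA and 10.64 ± 0.13 in saline-labelled LA arrays (SD, n = 4 each). HA minus LA was −0.34 on the DMI-labelled arrays (adjusted p = 0.00621), without overlap, and −0.21 over both labels (adjusted p = 0.00655). Scaling to a common median left −0.15 (adjusted p = 0.628) and turned the second value to 0.03 (adjusted p = 0.871). The choroid plexus markers differed between the lines in the same comparisons, and their part was not tested.

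Of the 8 measured genes that end receptor signalling, 2 had an adjusted p under 0.05 between the lines within the saline label, against 6.36% of all probes, and 2 over both labels, against 11.8%. Of these Rgs9 alone also passed the size limit. Rgs9, which speeds the G protein cycle and is also on the striatal list, was lower in HA, with −1.54 on the saline-labelled arrays (adjusted p = 0.0391). The adjusted p was over 0.05 in 9 of the 16 fits that left out an array, up to 0.109 without array 2 of the saline-labelled LA group, and was 0.173 with arrays scaled to a common median. Arrb1, which encodes beta-arrestin 1, was lower in HA there, with −0.28 (adjusted p = 0.0494). Its adjusted p was over 0.05 in 11 of those fits, up to 0.150 without array 2 of the saline-labelled HA group. With arrays scaled to a common median the difference was −0.10 (adjusted p = 0.679), and its other 4 probes gave −0.17 to 0.01. Over both labels Rgs7, a regulator of the same class as Rgs9, was lower in HA, with −0.21 (adjusted p = 0.0174), but gave 0.04 with arrays scaled to a common median. Grk5, a kinase that phosphorylates active receptors, was higher by 0.14 (adjusted p = 0.0270), with an adjusted p over 0.05 in 5 fits, up to 0.0589 without array 2 of the DMI-labelled HA group.

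The genes that carry opioid in their name without being opioid receptors had 2 of 4 members measured, both detected on 16 arrays. Ogfrl1 was higher in HA by 0.23 over both labels (adjusted p = 0.0316), short of the size limit. The adjusted p was over 0.05 in 7 of the 16 fits, up to 0.0712 without array 4 of the DMI-labelled LA group, and with arrays scaled to a common median the difference was 0.50 (adjusted p = 0.0240). Ogfr, the opioid growth factor receptor, had −0.08 over both labels (adjusted p = 0.241).

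Markers of hypothalamus and pituitary, the main sites of Pomc expression, were low on all arrays, with list means between 6.55 and 6.68. Of the 11 measured markers 5 were detected on at least 4 arrays, and Prl, Cga, Lhb and Tshb of the pituitary on 0 arrays, as was Pomc.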

How the data were processed

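Hippocampal RNA of the 4 groups was taken as labelled in the sample titles. The intensity values are signals per probe as deposited by the authors, without normalization or background subtraction, and the p-value columns are, per the file headers, detection p-values. The deposited log2 values come from the same signals, which the authors transformed and quantile normalized in R (beadarray, limma), and served as an alternative. Their largest gap to the values used here was 0.0456. Their scale was found from the signals, and the array medians were 6.69 there and 6.70 here.

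Signals were put on the log2 scale, quantile normalized over 16 arrays and tested with lmFit and eBayes (R 4.3.3, limma 3.58.1) with 1 mean per group, on all 25697 probes. A call needed an adjusted p (Benjamini-Hochberg) under 0.05 with a log2 difference beyond 0.5 in either direction, or the adjusted p alone for the difference of the DMI effects between the lines. Fold changes of dim probes are compressed, since no background was subtracted. The number of arrays limits the precision, and p-values measure the spread between pools. Alternatives were the authors' values, median scaling, normexp background correction, a filter on dim probes, array weights, a replicate block and leaving out each array.

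Genes were named from the platform annotation (23978 probes with 1 symbol, 0 with several, 1719 with none), with 23962 gene identifiers found in the GRCm38.p6 table. A gene stands at its probe detected on most arrays, then the brightest. Named were the 8 members, the 5 genes with the highest r to each member detected on all arrays, and from the pathway lists those with an adjusted p under 0.05, or up to 2 per list. Members and lists were chosen with earlier results of these data known. The treatment protocol field names desipramine for every sample, so the groups rest on the titles and the treatment field.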

Additional observations from a re-analysis of the deposited data

How the results depend on the processing

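Of 310 values of single probes under the alternatives, 283 kept their direction and side of the threshold, and 158 of 167 counts of opioid probes stayed the same. The authors' log2 values, the filter on dim probes, the fits of only the groups compared and array weights changed no count. Scaling to a common median moved the median over the 10707 probes detected on all arrays to 0.18 (HA minus LA, saline-labelled), 0.13 (DMI-labelled) and 0.16 (both labels), and the share of lower calls to 10%, 27.5% and 10%, against 54.8%, 54.8% and 53.2% with quantile normalization.

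On the saline-labelled arrays 1 opioid probe (Pdyn) passed in HA minus LA, and 0 with median scaling. The count was 0 to 1 when each array was left out (0 without array 2 of the saline-labelled LA or HA group). The fit without the 3 LA arrays high in striatal markers, chosen after the data had been seen, kept 1 array in that group, so its count is not given. Over both labels 0 passed, and 1 with normexp background correction, 1 with no limit on size, and 0 to 1 with each array left out (1 without array 3 or 4 of the saline-labelled LA group or array 4 of the DMI-labelled HA group). The Pdyn difference on the saline-labelled arrays ranged from −0.75 to −0.47 with each array left out. It was −0.78 (adjusted p = 0.0354 in limma) with normexp and −0.66 (adjusted p = 0.0206) on the authors' values. The cause was not tested.

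Signs turned in 23 values. With median scaling Oprl1 ILMN_2807572 gave −0.011 in the difference of the DMI effects, 0.076 (saline-labelled), 0.065 (DMI-labelled) and 0.071 (both labels) in HA minus LA. ILMN_2683352 gave 0.137 (saline-labelled) and 0.139 (both labels), ILMN_1235369 gave 0.044 (DMI-labelled) and 0.0074 (both labels), Pdyn ILMN_2767871 gave 0.028 (DMI-labelled) and Pdyn ILMN_2783873 gave 0.00044 in the common DMI effect. With array weights HA minus LA on the DMI-labelled arrays was −0.0022 at Oprl1 ILMN_2683352 and 0.0022 at ILMN_1235369. With each array left out in turn, Oprl1 ILMN_2683352 ranged from −0.035 to 0.024 in DMI minus saline of HA, from −0.0013 to 0.102 in the difference of the DMI effects, and in HA minus LA from −0.083 to 0.020 (saline-labelled), −0.012 to 0.068 (DMI-labelled) and −0.032 to 0.021 (both labels). ILMN_1235369 ranged from −0.015 to 0.032 in DMI minus saline of HA and from −0.024 to 0.016 in HA minus LA (DMI-labelled), and ILMN_2807572 from −0.017 to 0.068 in the difference of the DMI effects. Pdyn ILMN_2767871 ranged from −0.016 to 0.066 in DMI minus saline of LA and from −0.112 to 0.032 in HA minus LA (DMI-labelled), and Pdyn ILMN_2783873 from −0.112 to 0.035 in the common DMI effect.

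Replicate numbers did not pair the arrays: over 24 pairs of the same number the deviations from the group means correlated with r between −0.420 and 0.267, and 4 of 16 arrays correlated best with their own number. With the replicate block the Pdyn difference was −0.65 (adjusted p = 0.0260) and the count of 1 opioid probe stood. Among the other genes the block took the adjusted p over 0.05 for DMI minus saline of Kcnj9 in HA (adjusted p = 0.0668) and for HA minus LA of Arrb1 on the saline-labelled arrays (adjusted p = 0.0775), neither of which had passed the size limit. The BeadChip of each array is not in the headers used here, so the BeadChip as a block was not run. At a detection p under 0.01, 78 of the 144 probe and array combinations were detected, against 85 at 0.05. The 4 dim genes and the second Pdyn probe are limited by signal over background.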
